A study of Mus musculus with 55 samples.

Results

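Innate pattern receptors and their signalling adaptors were described as 9 genes: the lipopolysaccharide co-receptor CD14, the Toll-like receptors TLR2 and TLR4, the amplifying receptor TREM1, the adaptors TYROBP (DAP12) and FCER1G (the common Fc receptor gamma chain), and the C-type lectin receptors CLEC4D, CLEC4E and CLEC12A. They were chosen by symbol, and all 9 were found among the 15728 distinct symbols of each file, which pair human gene symbols with human Ensembl identifiers for these mouse samples; positions given here are those of the mouse gene of the same name in GRCm38. Their RNA was measured by MARS-seq, a 3′-end sequencing method, in sorted cells of mouse bone marrow, 55 libraries in all. The sorted populations were granulocytes, CD4+ T helper cells, CD8+ T cytotoxic cells and CD4+CD25+ cells labelled T reg, called Treg here. Marrow of 4 kinds was used: that of normal mice, that of an early stage of metastasis, and the peripheral marrow and metastatic core of late-stage mice, which the series design pairs by mouse. The metastases are of breast cancer, per the series title. In the order normal, early, peripheral and core, there were 4, 4, 4 and 3 libraries of granulocytes and of CD4 cells, 4, 4, 2 and 2 of CD8 cells and 4, 3, 3 and 3 of Treg. The sources used here give neither the strain and age of the mice nor the tumour line, and the tissue label of the core granulocytes reads bone marrow, so these were grouped by title.

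Pattern receptors recognise conserved microbial molecules and products of damaged cells. CD14 binds lipopolysaccharide and passes it to TLR4, while TLR2 recognises bacterial lipopeptides together with TLR1 or TLR6, and both receptors signal through MYD88. TREM1, CLEC4D and CLEC4E have no signalling motif of their own. TREM1 couples to TYROBP, and CLEC4D and CLEC4E couple to FCER1G; the immunoreceptor tyrosine-based activation motif (ITAM) of the adaptor is phosphorylated and recruits the kinase SYK. CLEC12A carries an inhibitory motif and dampens activation of myeloid cells. In granulocytes these genes set how strongly a cell responds to bacteria and tissue damage, and conventional T cells are known to express few of them.

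The libraries held 357058 to 1633022 reads in granulocytes, 68263 to 876798 in CD4, 43224 to 1148806 in CD8 and 90075 to 429903 in Treg, and the 9 genes had 3134 to 14995 reads in a granulocyte library. Values are given as CPM, a gene's share of the reads of its library scaled to 1e6, not divided by transcript length. Over the 15 granulocyte libraries the neutrophil gene S100A8 stood at 48500 to 113000 CPM and the T cell receptor-associated gene CD3E at 0 to 8.41 CPM. CD3D, another such gene, averaged 129 ± 53.8 CPM in core granulocytes (n = 3), against 537 ± 47.9 CPM in normal ones (n = 4). Treg libraries from normal marrow held 9620 ± 550 CPM (SD, n = 4) of the macrophage complement gene C1QA, against 280 ± 138 CPM in the CD4 libraries of normal marrow (n = 4). Reads from a list of 6 lung genes, such as surfactant genes, were found in every group, though not of each gene; their summed deposited value was 349.4 or more in 24 of the 55 libraries, called rich in lung transcripts here (above 200), and at most 82.41 in the others. Core granulocyte libraries 2 and 3, CD4 core libraries 1 and 2, both CD8 core libraries and Treg core library 1 were among them. The labels do not say that the libraries of a group came from separate mice, so p-values measure the spread between libraries, which may be technical. In sorted bulk samples, fewer cells of a type and less RNA per cell cannot be told apart.

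Granulocytes of the metastatic core carried 9.60 times as much CD14 RNA as granulocytes of the peripheral marrow, and 3.02 times as much TREM1, by mean CPM. TLR2 was higher to a smaller degree, while TLR4, both adaptors and the 3 C-type lectins did not pass the test there. Of the 9 genes, 3 were higher and 0 lower in core against peripheral granulocytes, where 1.68% of the 3808 genes tested passed, 1.55% as higher and 0.131% as lower. Against normal marrow 3 were higher and 0 lower, where 12.6% of genes passed (6.07% higher, 6.49% lower), and against early marrow 2 were higher and 0 lower, where 2.02% passed (1.71% higher, 0.315% lower). The test was limma on log2(deposited value + 4), with Benjamini-Hochberg adjustment over all genes and a threshold of 0.05, and each difference is on that scale. The core, peripheral and early comparisons with normal marrow share the normal libraries.

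CD14, which lies on chromosome 18 (36725067 to 36726798 of GRCm38, minus strand; ENSG00000170458 in the files), had 163, 187, 79.6 and 88.4 CPM in the 4 normal granulocyte libraries. It had 267, 246, 339 and 224 CPM in early, 269, 300, 389 and 284 CPM in peripheral, and 4040, 3000 and 1890 CPM in core granulocytes. The 3 core libraries stood above all 12 others, the lowest core library at 4.87 times the highest of them. The core mean was 2980 ± 1080 CPM (SD, n = 3) against 310 ± 53.9 CPM in peripheral granulocytes (n = 4), a difference of 3.45 ± 0.32 (SE; adjusted p = 1.5e-06). Against normal granulocytes, at 129 ± 53.5 CPM (n = 4), the difference was 4.49 ± 0.32 (adjusted p = 8.28e-08). The core calls held when any of the 15 libraries was left out and in all 11 other settings tried; in that of libraries low in lung transcripts, only core library 1 was left in the core.

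CD14 was already higher outside the core. Early granulocytes averaged 269 ± 49.7 CPM (n = 4), a difference from normal of 1.13 ± 0.30 (adjusted p = 0.0327), and peripheral granulocytes differed from normal by 1.04 ± 0.30 (adjusted p = 0.0364). No normal library reached the lowest early or peripheral one. These were the smaller calls, and they depended on single libraries. The early call was lost without normal replicate 3 (0.93, adjusted p = 0.136), normal replicate 4 (0.96, 0.131), or early replicate 1 (1.04, 0.103), 2 (1.20, 0.0507) or 3 (1.02, 0.0797). The peripheral call was lost without normal replicate 3 (0.84, adjusted p = 0.138) or 4 (0.87, 0.124), or peripheral replicate 1 (1.10, 0.0529), 2 (1.13, 0.059), 3 (0.93, 0.117) or 4 (1.03, 0.0651). Both were also lost by edgeR with TMM (adjusted p = 0.0586 and 0.0576) and RLE (0.0589 and 0.0552), and without a filter on low values (0.0759 and 0.0834). In the early comparison 1 of the 9 genes passed, against 4.78% of all genes (3.05% higher, 1.73% lower), and in the peripheral comparison CD14 was higher and CLEC12A lower, against 8.14% of all genes (3.83% higher, 4.31% lower). Between peripheral and early granulocytes 0 of the 9 passed, as did 0.00% of all genes by limma, and 0 of the 9 passed by edgeR or DESeq2; TLR2 (-0.81 ± 0.23), FCER1G (-0.61 ± 0.18), TYROBP (-0.58 ± 0.20) and CLEC4D (-0.83 ± 0.29) had unadjusted p = 0.00262, 0.00368, 0.00838 and 0.0115 there.

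**Figure D1:**
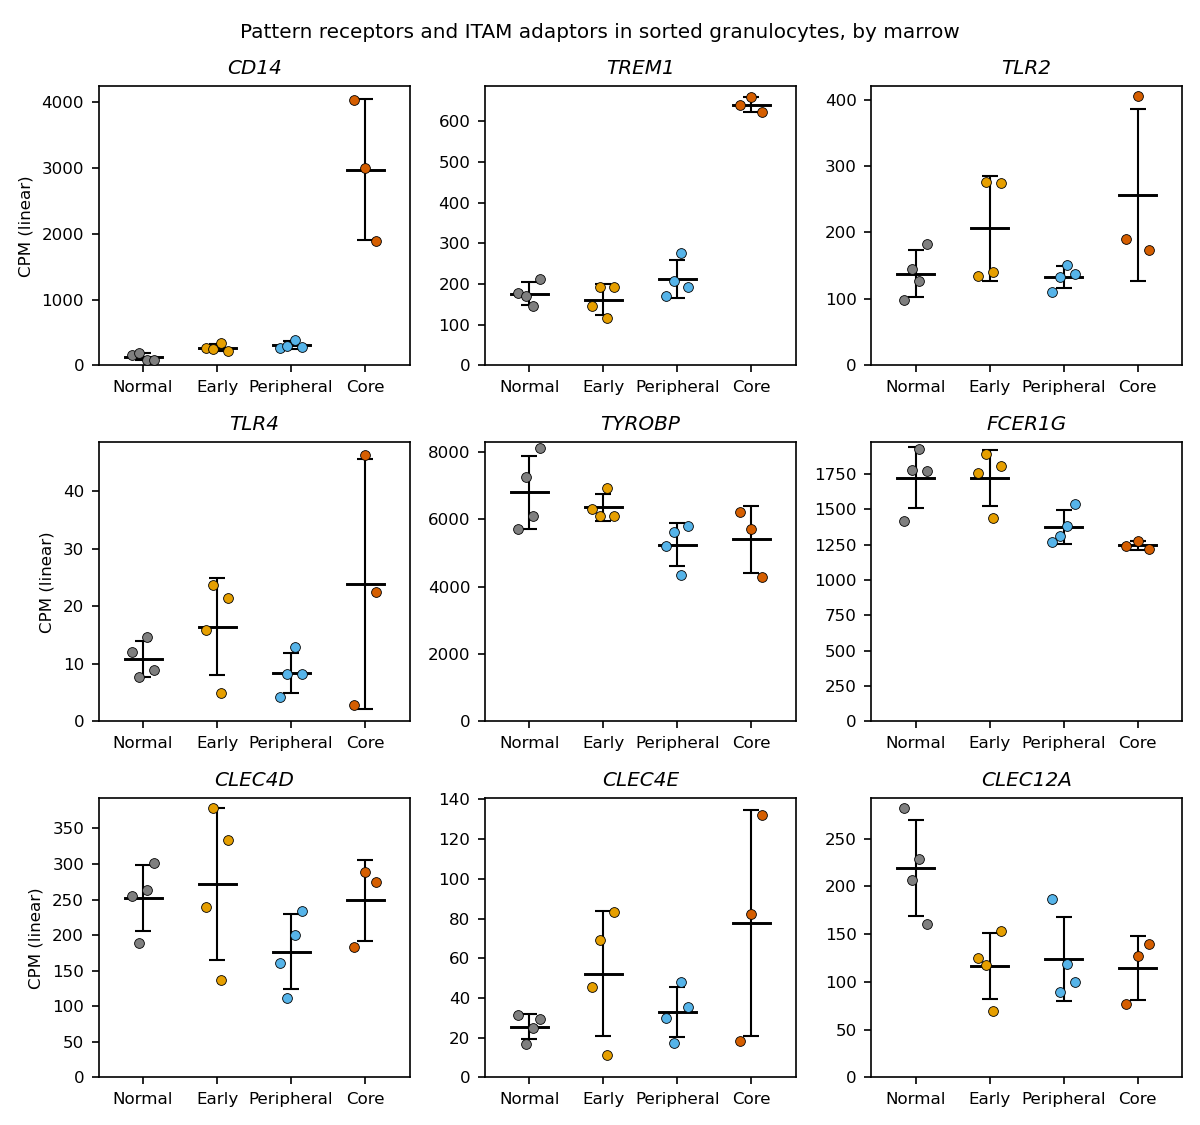
Level of each of the 9 genes in each granulocyte library (points; CPM on a linear axis from 0), by kind of marrow, with the group mean (wide line) and SD (error bar; n = 4 libraries, 3 for core). The 3 core libraries stood apart from all others for CD14 (1890 to 4040 CPM) and TREM1 (622 to 659 CPM); for the other 7 genes core libraries lay among or below the others, apart from core library 2 for TLR2 and TLR4 and core library 3 for CLEC4E.

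TREM1 (ENSG00000124731; chromosome 17, 48232768 to 48246924, plus strand) had 177, 170, 145 and 212 CPM in normal, 147, 192, 116 and 192 CPM in early, and 170, 208, 277 and 192 CPM in peripheral granulocytes. In the core it had 640, 659 and 622 CPM. Outside the core the groups overlapped, and within the core the spread was the narrowest of any of the 4 groups. The core mean of 640 ± 18.5 CPM (n = 3) exceeded 212 ± 46.3 CPM in peripheral granulocytes (n = 4) by 1.85 ± 0.22 (adjusted p = 2.73e-05), and 176 ± 27.4 CPM in normal granulocytes (n = 4) by 1.86 ± 0.22 (adjusted p = 2.77e-05). Early and peripheral granulocytes differed from normal by -0.08 ± 0.20 and 0.01 ± 0.20. The core calls held without any single library and in all 11 other settings, again with 1 core library in the one low in lung transcripts. The gene overlaps a processed pseudogene annotated on the opposite strand, and the sources used here do not say how strand was used in counting.

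TLR2 (ENSG00000137462; chromosome 3, 83836272 to 83841767, minus strand) had 98.8, 145, 127 and 182 CPM in normal and 135, 276, 140 and 274 CPM in early granulocytes. It had 110, 133, 151 and 138 CPM in peripheral and 190, 405 and 174 CPM in core granulocytes. The core libraries were above every peripheral library, but overlapped the normal and early ones, and core library 2 was the highest of all 15. The differences were 1.07 ± 0.25 from peripheral (adjusted p = 0.0311) and 0.81 ± 0.25 from normal granulocytes (adjusted p = 0.0422), while early against normal gave 0.56 ± 0.23 (adjusted p = 0.233). Core against early granulocytes gave 0.26 ± 0.25 (adjusted p = 0.649). The call against peripheral marrow was lost without core replicate 2 (0.84, adjusted p = 0.0831) or 1 (1.15, 0.0609), or peripheral replicate 1 (1.00, 0.0992), 2 (1.01, 0.0869) or 3 (1.14, 0.0502), and with values scaled to CPM before the fit (0.83, 0.2). The call against normal marrow was lost without core replicate 2 (0.58, adjusted p = 0.157), peripheral replicate 3 (0.81, 0.0512), or normal replicate 1 (0.71, 0.109), 2 (0.84, 0.0678) or 3 (0.77, 0.106), and with values scaled to CPM (0.80, 0.129). Without a filter on low values neither passed (adjusted p = 0.0643 against peripheral and 0.0954 against normal marrow). In libraries low in lung transcripts, with 1 core library, the values were 0.83 (0.0572) against peripheral and 0.55 (0.194) against normal marrow.

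TLR4 (ENSG00000136869; chromosome 4, 66827584 to 66930284, plus strand) was a low gene in granulocytes, with 7.73 to 14.6 CPM in normal, 4.89 to 23.7 CPM in early and 4.30 to 12.9 CPM in peripheral libraries. The core libraries had 2.85, 46.3 and 22.4 CPM, so that the core held both the lowest and the highest of the 15 libraries. Core libraries 2 and 3, with the higher values, were rich in lung transcripts. The core difference from peripheral granulocytes was 0.79 ± 0.41 (adjusted p = 0.462). Its reads over all granulocyte libraries numbered 238, against 10230 for CD14, so changes of TLR4 were measured with less precision than those of its co-receptor.

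**Figure D2:**
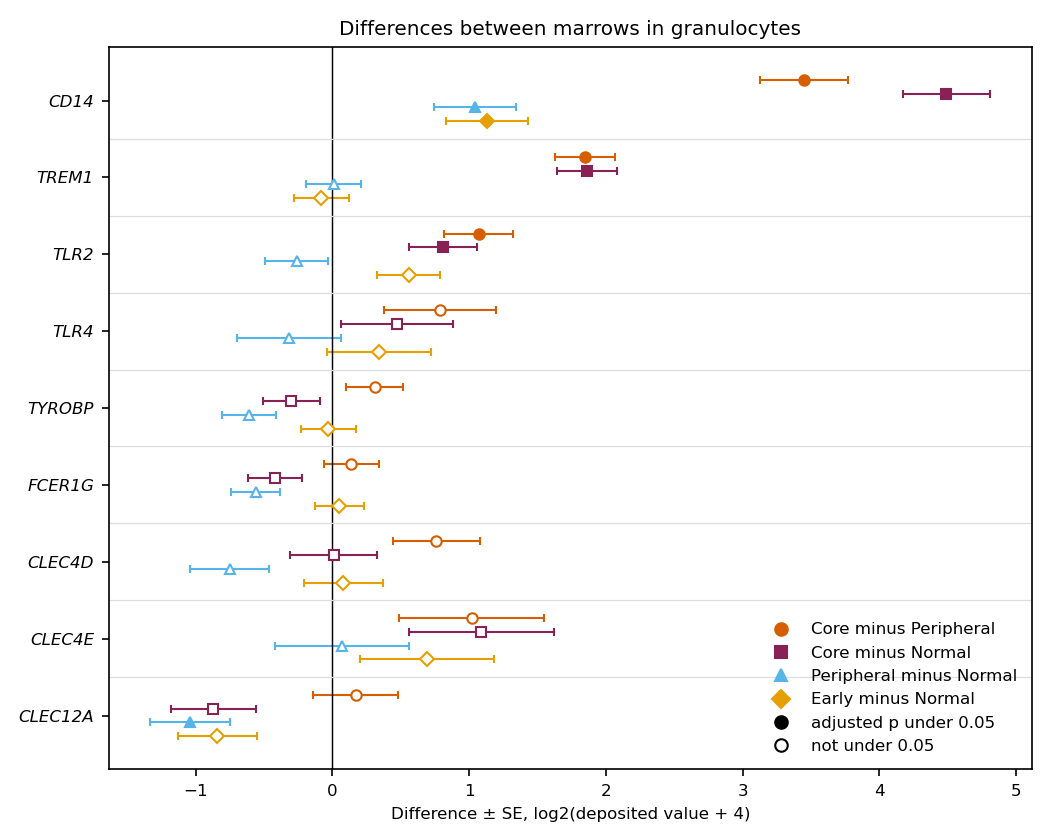
Difference between marrows in granulocytes for each gene (points; log2 of the deposited value + 4) with its SE (error bar), for 4 comparisons; filled points passed an adjusted p of 0.05 by limma. CD14 lay at 3.45 and 4.49 for core against peripheral and normal marrow, TREM1 at 1.85 and 1.86, and the adaptors TYROBP and FCER1G between -0.61 and 0.31 throughout.

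The promoters of TREM1 and TLR2 are shown because both genes, like CD14, passed as higher in core than in peripheral and normal granulocytes. The TLR2 calls depended on single libraries. The sequences are the 250 bases before the start site in RefSeq (GRCm38.p6), 5′ to 3′ in the direction of the gene. That start site is not always the one implied by the gene positions given above. Of the 9 genes, promoters of 6 were taken from the table used. Those of CD14, TLR4 and TYROBP were not searched. Capitals mark matches to GAGGAA (the core letters bound by PU.1), TTGCNNAA (C/EBP), GGGA, any 4 bases and CC (NF-kappaB) or TGANTCA (AP-1), searched on both strands. TREM1 is at chr17:48232489-48232738 on the plus strand and TLR2 at chr3:83841609-83841858 on the minus strand.
TREM1: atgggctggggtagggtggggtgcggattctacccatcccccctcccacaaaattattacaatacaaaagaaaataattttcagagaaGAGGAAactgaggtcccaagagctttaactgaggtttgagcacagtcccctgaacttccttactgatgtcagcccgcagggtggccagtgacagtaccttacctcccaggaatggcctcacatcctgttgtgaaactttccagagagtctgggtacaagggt
TLR2: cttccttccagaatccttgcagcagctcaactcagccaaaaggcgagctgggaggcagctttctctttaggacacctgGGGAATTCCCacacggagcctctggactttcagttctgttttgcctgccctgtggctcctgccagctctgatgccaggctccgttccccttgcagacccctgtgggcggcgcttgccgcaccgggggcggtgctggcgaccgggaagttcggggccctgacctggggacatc
The PU.1 letters begin 162 bases before the start in TREM1, and the NF-kappaB letters begin 172 bases before it in TLR2. The 2 windows share none of these motifs. Over all 32851 promoters of the table, 23.3% held the PU.1 letters, 17.6% the NF-kappaB, 9.56% the C/EBP and 6.75% the AP-1 letters. Of the 6 promoters, 4 held the PU.1 letters (TREM1, CLEC4D, CLEC4E, CLEC12A), 2 the NF-kappaB (TLR2, FCER1G), 2 the C/EBP (CLEC4E, CLEC12A) and 1 the AP-1 letters (CLEC12A). By the gene positions given above, the windows of TLR2 and FCER1G lay partly inside the gene. That of CLEC12A lay wholly inside it, so its matches may not be those of a promoter. A match describes the letters in its window and is not a measured binding site.

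The adaptor TYROBP did not follow the receptor TREM1 in the core. TYROBP (ENSG00000011600; chromosome 7, 30413760 to 30417585, plus strand), the partner of TREM1, had 5720, 7270, 6110 and 8110 CPM in normal and 6310, 6090, 6930 and 6090 CPM in early granulocytes. Peripheral granulocytes had 5200, 5640, 4360 and 5800 CPM and core granulocytes 6210, 5720 and 4300 CPM. All 4 groups overlapped except peripheral with early. The core differed from peripheral granulocytes by 0.31 ± 0.21 and from normal ones by -0.30 ± 0.21 (adjusted p = 0.39), and peripheral from normal granulocytes by -0.61 ± 0.20 (0.0602). The last difference passed by DESeq2 (-0.60, adjusted p = 0.0194), where 496 of 3808 genes passed. By limma it passed without peripheral replicate 4 (-0.72, adjusted p = 0.0445) or core replicate 1 (-0.61, 0.0376) or 2 (-0.61, 0.0416).

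FCER1G (ENSG00000158869; chromosome 1, 171229572 to 171234365, minus strand), the partner of CLEC4D and CLEC4E, had its lowest mean CPM in the core, while on the deposited scale of the tests its mean was 627 in core and 572 in peripheral granulocytes. It had 1420, 1780, 1930 and 1770 CPM in normal, 1760, 1890, 1440 and 1810 CPM in early, 1270, 1310, 1380 and 1540 CPM in peripheral, and 1240, 1280 and 1220 CPM in core granulocytes. The core libraries overlapped the peripheral ones and lay below every early and normal library. The differences did not pass by limma: -0.42 ± 0.20 for core (adjusted p = 0.186) and -0.56 ± 0.18 for peripheral against normal granulocytes (0.0673). The peripheral difference passed by DESeq2 (-0.55, adjusted p = 0.0129). By limma it passed without peripheral replicate 4 (-0.67, adjusted p = 0.0445) or core replicate 2 (-0.56, 0.0454). The ratio of TYROBP to FCER1G CPM within a library stayed between 3.15 and 5.02 over the 15 granulocyte libraries, with a median of 4.02.

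CLEC12A (ENSG00000172322; chromosome 6, 129342691 to 129365303, plus strand), the inhibitory lectin, was highest in normal granulocytes, at 282, 207, 229 and 161 CPM. It had 125, 118, 70.0 and 153 CPM in early, 187, 89.6, 119 and 100 CPM in peripheral, and 77.0, 127 and 140 CPM in core granulocytes. The early and core libraries lay below all normal ones, and peripheral replicate 1 overlapped them. The peripheral difference of -1.04 ± 0.29 passed (adjusted p = 0.0315); the early one of -0.84 ± 0.29 (0.119) and the core one of -0.87 ± 0.31 (0.0732) did not. The peripheral call was lost without normal replicate 1 (-0.87, adjusted p = 0.11), 2 (-1.06, 0.0666) or 3 (-1.02, 0.0829), or peripheral replicate 2 (-0.85, 0.116), 3 (-1.04, 0.075) or 4 (-1.01, 0.0602), without a filter on low values (-1.04, 0.0744) and with values scaled to CPM (-0.84, 0.0802). The core difference from peripheral granulocytes was 0.17 ± 0.31 (adjusted p = 0.845). In the comparisons with normal marrow CAMP, a neutrophil granule gene, was lower too, at 18900 ± 6850 CPM in peripheral granulocytes against 50200 ± 5090 CPM in normal ones (-1.72 ± 0.28, adjusted p = 0.00102), and so was CD3D (-2.15 ± 0.25); their part in the CLEC12A values was not tested.

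CLEC4D and CLEC4E, activating lectins that sense mycobacterial glycolipids and, for CLEC4E, products of dead cells, are neighbours on chromosome 6, on opposite strands and 6523 bases apart. CLEC4D (ENSG00000166527; 123262111 to 123275265) had 183, 289 and 274 CPM in core granulocytes, against 161, 112, 200 and 234 CPM in peripheral ones (0.76 ± 0.32, adjusted p = 0.329). CLEC4E (ENSG00000166523, 123281789 to 123289870) had 18.5, 82.4 and 132 CPM in core granulocytes, against 30.1, 17.5, 47.9 and 35.6 CPM in peripheral ones (1.02 ± 0.53, adjusted p = 0.462). Against normal granulocytes, at 25.5 ± 6.30 CPM (n = 4), the core difference of CLEC4E was 1.09 ± 0.53 (adjusted p = 0.206 by limma). It passed by DESeq2 (1.67, adjusted p = 0.0276), where 519 of 3808 genes passed. By limma it passed without core replicate 1 (1.73, adjusted p = 0.0329). Core replicate 1 was the lowest of the 3 core libraries for both genes, and for TLR4, whereas it was the highest for CD14. It was also the only core granulocyte library low in lung transcripts. The higher core values of CLEC4E and TLR4 thus came from lung-rich libraries, and the part of lung RNA in them was not tested. Pearson's r of the 2 lectins on the log2 scale was 0.71 over the 15 granulocyte libraries, and that of TLR4 with CLEC4E was 0.83. FCER1G, the adaptor of the 2 lectins, had r = 0.69 with CLEC4D and 0.15 with CLEC4E. These libraries share their group differences and differ in depth.

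Groups not overlapping in CPM matched the limma calls only in part. In core against peripheral granulocytes 3 of the 9 genes did not overlap, where 14.4% of all tested genes did not. In core against normal granulocytes 4 did not overlap (22.7% of all genes), namely CD14 and TREM1 above and FCER1G and CLEC12A below. In early against normal granulocytes these were CD14 and CLEC12A (12.3% of all genes), and in peripheral against normal granulocytes CD14 alone (23.1%). In core against early granulocytes they were CD14 and TREM1 above and FCER1G below (7.64%), and in peripheral against early ones TYROBP below (7.38%). The median difference of the 9 genes was 0.79 in core against peripheral granulocytes, where the median of all genes was -0.06.

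The macrophage markers C1QA, C1QB and C1QC moved with the core. C1QA had 197, 247 and 148 CPM in the 3 core libraries, against 11.8, 8.24, 5.53 and 4.13 CPM in peripheral granulocytes, a difference of 3.86 ± 0.35 (adjusted p = 1.26e-06); C1QB (3.00 ± 0.27) and C1QC (3.37 ± 0.27) rose with it. These were the 3 of the 5 tested markers of monocytes and macrophages that passed, of 13 in the files. The summed CPM of the 13, these 3 included, was 272 to 381 in normal, 238 to 384 in peripheral and 546 to 753 in core libraries. C1QB and C1QC averaged 115 ± 24.6 and 115 ± 47.2 CPM in core granulocytes, against 8.71 ± 1.67 and 4.26 ± 3.13 CPM in peripheral ones. The higher core sum than in peripheral granulocytes thus lay in the 3 C1Q genes, not in the rest of the list. In the core 11 of the 13 had reads; CX3CR1 was at 0 in all 4 granulocyte groups, and MERTK in the core and normal ones. In peripheral against normal marrow C1QA and CD14 ran opposite ways: C1QA was lower, at 7.43 ± 3.39 CPM against 38.7 ± 14.0 CPM (-1.66 ± 0.32, adjusted p = 0.00372), and CD14 was higher. In core granulocytes the mean CPM of CD14, TREM1 and TLR2 was 15.1, 3.25 and 1.3 times that of C1QA. In the Treg libraries of normal marrow, the richest in C1QA, these ratios were 0.0288, 0.000807 and 0.00863. In the Treg libraries of the core, the same site, they were higher, at 0.663, 0.0139 and 0.0764. The part of macrophage RNA in the core values of CD14, TREM1 and TLR2 was not tested. Neutrophil markers, 11 in the files, summed to 186000 to 303000 CPM in core and 135000 to 245000 CPM in peripheral granulocytes, and 0 of the 11 passed.

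**Figure D3:**
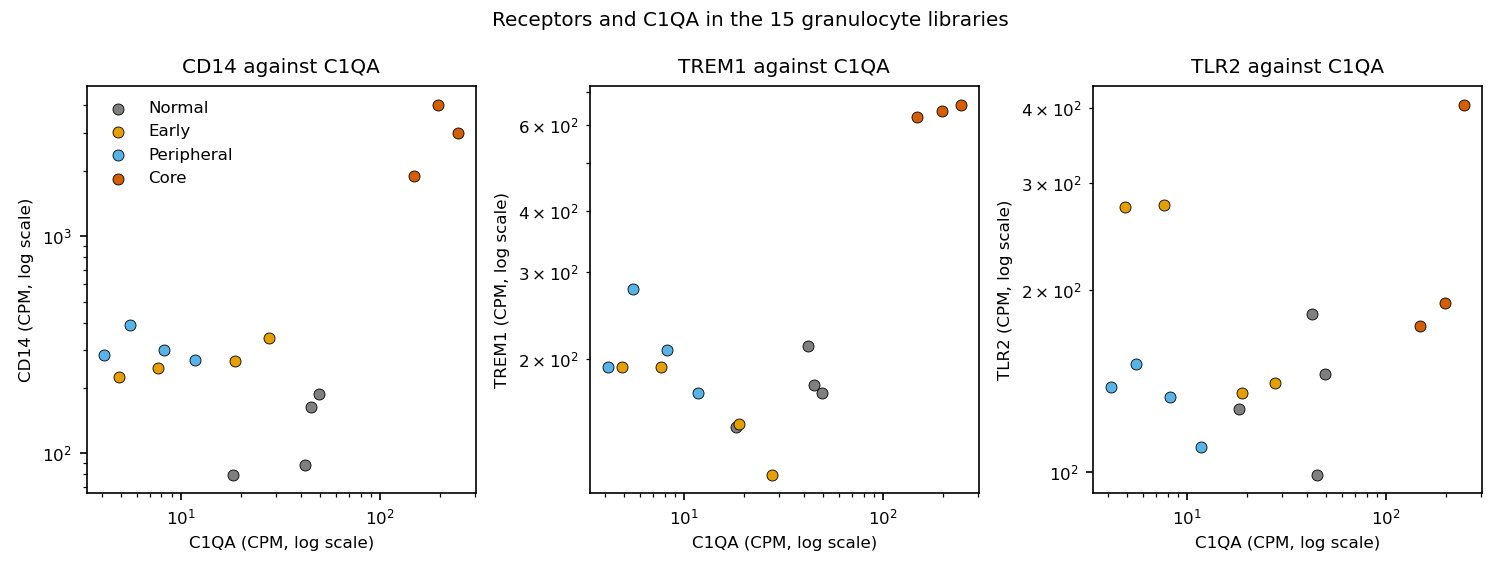
CD14, TREM1 and TLR2 against the macrophage gene C1QA in the 15 granulocyte libraries (points, coloured by marrow; both axes CPM on log scales). The 3 core libraries were highest for C1QA (148 to 247 CPM), CD14 and TREM1; early and peripheral libraries had 4.13 to 27.7 CPM of C1QA with CD14 at 224 to 389 CPM, and normal libraries 18.3 to 49.5 CPM of C1QA with CD14 at 79.6 to 187 CPM.

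Of the other genes of these pathways, those that passed did so against normal marrow. Of 15 other Toll-like receptors and co-receptors in the files, 6 were tested, and LBP, the lipopolysaccharide-binding protein, and TLR1, the partner of TLR2, were higher in early and peripheral granulocytes. LBP averaged 354 ± 98.5 CPM in early and 426 ± 35.3 CPM in peripheral granulocytes against 177 ± 32.3 CPM in normal ones (1.00 ± 0.18 in both comparisons), and 323 ± 43.8 CPM in the core (0.88 ± 0.19). TLR1 averaged 57.9 ± 33.2 CPM in early and 69.8 ± 34.0 CPM in peripheral granulocytes against 6.82 ± 2.65 CPM in normal ones (2.02 ± 0.38 and 2.10 ± 0.38). LBP passed in all 3 comparisons with normal marrow, and TLR1 in the 2 outside the core.

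Of 18 signalling genes downstream of these receptors, 11 were tested. MYD88, the shared adaptor, was higher in early (1.11 ± 0.19), peripheral (0.83 ± 0.19) and core granulocytes (0.75 ± 0.20) than in normal ones, at 506 ± 120, 505 ± 107 and 395 ± 96.8 CPM against 236 ± 47.7 CPM. IRAK2, a kinase of the same complex, was lower in early (-0.99 ± 0.20) and peripheral granulocytes (-0.95 ± 0.20), and the transcription factor IRF5 was lower in early ones (-1.04 ± 0.25). In core against peripheral granulocytes 0 of the 6 and 0 of the 11 passed by limma, with list medians of -0.11 and -0.19.

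On the ITAM side, 0 of 8 tested signalling genes such as SYK passed in any of the 6 granulocyte comparisons by limma. A list of activating receptors had 5 tested genes. Of these, the lectin CLEC2D was lower than in normal marrow in peripheral (-1.01 ± 0.26) and core granulocytes (-0.95 ± 0.29). Whether CLEC2D acts through an ITAM adaptor was not examined. CD300LB, a receptor that can couple to TYROBP, was lower in core than in normal granulocytes (-1.58 ± 0.43). Among 9 tested inhibitory receptors and phosphatases, CD300LF was higher in core than in normal granulocytes, at 1670 ± 114 against 820 ± 115 CPM (1.06 ± 0.26, adjusted p = 0.0128). Of 5 tested cytosolic and other pattern receptors 0 passed in these comparisons. In core against peripheral granulocytes 0 of the tested genes of all 6 lists passed by limma.

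The genes most like each receptor over the 15 granulocyte libraries were ranked by Pearson's r of log2(value + 4) among 3798 genes, as a description; the libraries share their group differences and differ in depth. For CD14 they were CSRNP1 (0.97), the transcriptional repressor SNAI1 (0.96) and the neutrophil chemokine CXCL2 (0.96). For TREM1 they were the cytokine OSM (0.94) and the AP-1 subunits FOSL1 (0.93) and JUNB (0.93). For TLR2 the values were lower, with PPP1R3B (0.80), the niacin receptor HCAR2 (0.79) and VMP1 (0.79). CLEC12A was most like ORM1 (0.96), a neutrophil acute-phase protein gene, and FCER1G most like PLOD3 and LST1 (0.90 each). CD14 and TREM1 had r = 0.89 with each other, and -0.13 and -0.11 with TYROBP.

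In the T cell libraries the 9 genes served as a measure of myeloid RNA, and they differed in how often they were read. TREM1, CLEC4D and CLEC4E were near 0, with 85, 123 and 47 reads in all 40 libraries together and 0 reads in 15, 11 and 22 of them. TLR4 was sparse too, with 112 reads in all and 0 reads in 17 libraries. TLR2 had 441 reads, and 0 reads in 1 library. Every one of the 40 libraries held reads of CD14, TYROBP, FCER1G and CLEC12A, with medians of 114, 2570, 362 and 176 CPM. Each group's mean was set against the granulocytes of the same kind of marrow, beside the sum of the neutrophil genes S100A8 and S100A9, which stood at 0.824 to 27.7% of the granulocyte level over the 12 T cell groups.

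TREM1 reached 0.272 to 14.2% of its granulocyte level, CLEC4D 0.557 to 24.0% and CLEC4E 1.14 to 32.4%. Divided by the S100A8 and S100A9 percentage of the same group, their medians were 0.549, 0.71 and 1.31. The range over the 12 groups was 0.0484 to 1.11 for TREM1, 0.0575 to 4.59 for CLEC4D and 0.169 to 6.20 for CLEC4E, so that CLEC4D exceeded 2 in 3 groups and CLEC4E in 5. For the other genes the median quotient was 3.46 for TLR2, 3.71 for CD14, 4.55 for TLR4, 5.84 for FCER1G, 6.06 for TYROBP and 16.4 for CLEC12A. In CPM, CLEC12A stood at 13.7 to 225% of its granulocyte level. Its CPM in Treg libraries of normal marrow was 367 ± 117 (n = 4), against 220 ± 50.6 in normal granulocytes (n = 4). On the deposited scale of the tests its means there were 103 and 108, so the higher Treg level held in CPM only. In early marrow, the group at 225%, its deposited mean was 74.4 in Treg libraries and 59.2 in granulocytes. TLR4 in the Treg libraries of normal marrow had 43.2, 65.1, 7.01 and 64.3 CPM, against 12.1, 7.73, 14.6 and 8.92 CPM in normal granulocytes; 3 of the 4 Treg libraries lay above all 4 granulocyte libraries and replicate 3 below them. In the CD8 libraries of early marrow it had 0 reads of 383727, which allows up to 7.82 CPM, and in those of peripheral marrow 0 reads of 641347, which allows up to 4.68 CPM; these limits cover counting error only.

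**Figure D4:**
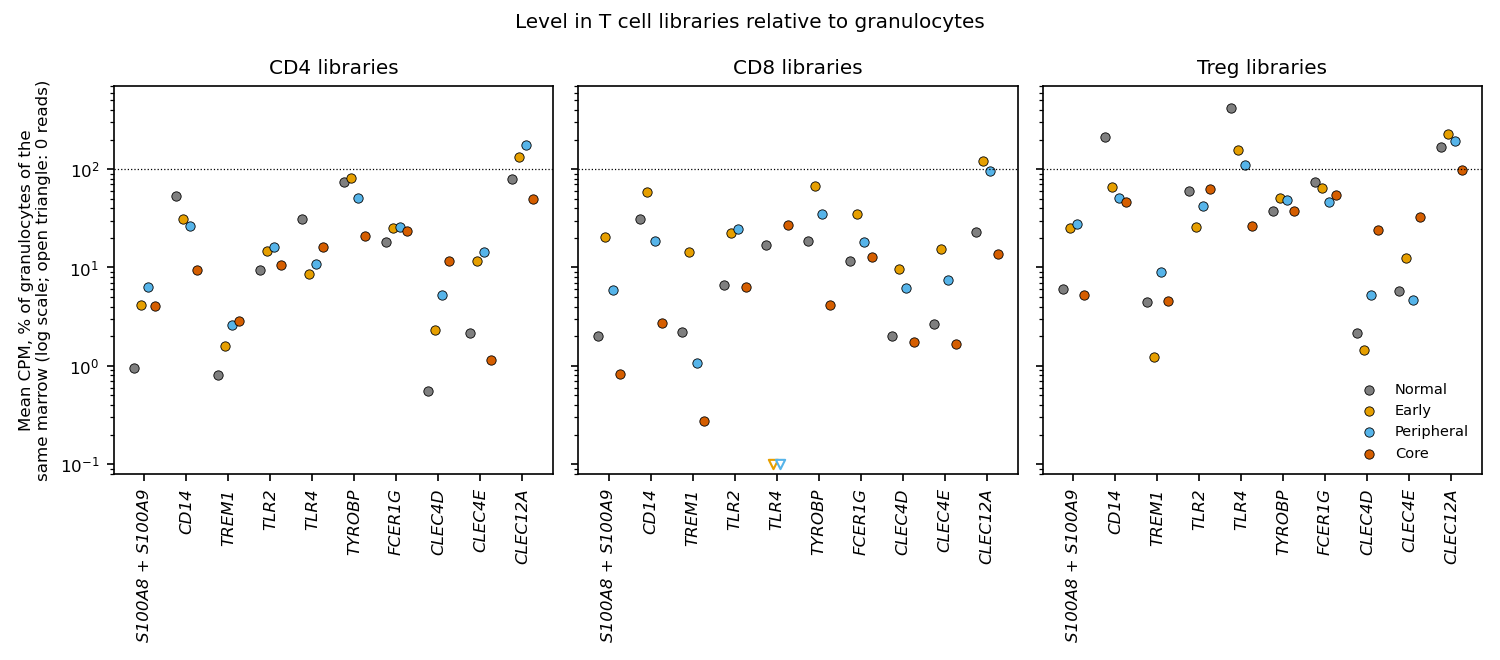
Mean CPM of the neutrophil genes S100A8 and S100A9 together and of each of the 9 genes in T cell libraries, as a percent of the mean in granulocytes of the same marrow (log scale; dotted line at 100%; open triangles mark 0 reads). S100A8 and S100A9 lay at 0.824 to 27.7%, TREM1 at 0.272 to 14.2%, TYROBP at 4.12 to 80.7% and CLEC12A at 13.7 to 225%.

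TYROBP stood far above the neutrophil genes in several T cell groups. In CD4 libraries it had 4510, 5130, 5990 and 4470 CPM in normal, 4970, 5750, 4590 and 5200 CPM in early, 1940, 818, 3750 and 4220 CPM in peripheral, and 1150, 380 and 1860 CPM in core marrow. The normal and early CD4 libraries were at 73.9% and 80.7% of the granulocyte level in CPM, and at 39.6% and 41.8% in deposited values, while in CPM S100A8 and S100A9 were at 0.939% and 4.13%. The core libraries lay below all normal and early ones, by -2.28 ± 0.47 against normal marrow (adjusted p = 0.0128) and -1.16 ± 0.47 against peripheral marrow (0.296). Of 4 members tested in CD4 cells, 2 were lower in core than in normal marrow, where 3.79% of genes passed (1.79% lower), and 1 was lower in core than in peripheral marrow, where 2.01% passed (0.419% lower). The TYROBP call was lost without core replicate 2 (-1.67, adjusted p = 0.0562) and in libraries low in lung transcripts (-1.44, 0.997), where 1 core and 1 normal library remained.

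In CD8 libraries TYROBP had 1830, 1140, 1030 and 1070 CPM in normal and 3540, 4570, 4300 and 4720 CPM in early marrow, with no overlap. It had 3120 and 517 CPM in peripheral and 119 and 326 CPM in core marrow, the core below every other CD8 library. Early marrow exceeded normal by 1.60 ± 0.40 (adjusted p = 0.0322), and FCER1G did so by 1.47 ± 0.41 (0.0484), at 597 ± 172 against 199 ± 117 CPM (n = 4 each); 2 of 5 members passed as higher, where 4.85% of genes did (1.33% higher, 3.52% lower). In the same comparison S100A8 stood at 4990, 5650, 68600 and 6690 CPM in early and at 3580, 369, 2190 and 408 CPM in normal marrow, and 6 of 10 tested T cell markers were lower; the part of myeloid RNA in these differences was not tested. The TYROBP call was lost without normal replicate 2 (1.57, adjusted p = 0.0815), 3 (1.53, 0.0845) or 4 (1.52, 0.0974), or early replicate 2 (1.59, 0.0677), 3 (1.56, 0.0798) or 4 (1.54, 0.0916). The FCER1G call was lost without normal replicate 2 (1.33, adjusted p = 0.134), 3 (1.60, 0.0725) or 4 (1.18, 0.149), early replicate 1 (1.55, 0.0684), 3 (1.38, 0.0964) or 4 (1.31, 0.121), or peripheral replicate 1 (1.47, 0.0595) or 2 (1.47, 0.059). Neither passed without a filter on low values (adjusted p = 0.0698 for TYROBP and 0.118 for FCER1G), by edgeR with TMM (0.052 and 0.117) or RLE (0.0533 and 0.103) or by voom (0.0876 and 0.142), nor TYROBP with values scaled to CPM (0.0535) or FCER1G with a pseudocount of 1 (0.0671). In libraries low in lung transcripts, with 2 normal libraries, TYROBP gave 1.43 (adjusted p = 0.278) and FCER1G 0.81 (0.464).

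TYROBP was lower in CD8 core libraries than in normal ones (-2.47 ± 0.49, adjusted p = 0.0228; 1.19% of genes passed, 0.266% as lower) and than in peripheral ones (-2.49 ± 0.57, adjusted p = 0.0447; 1.27% of genes passed, 0.123% as lower), as the 1 of 5 tested members in each. With values scaled to CPM they had an adjusted p of 0.0678 and 0.127, and the second also 0.0863 with a pseudocount of 1, 0.0501 with a filter of 20 and 0.0624 by voom. Without core replicate 1 these were -1.78 (adjusted p = 0.579) and -1.80 (0.385), and without peripheral replicate 1 the second was -1.38 (0.35). The second, at -2.49, was also lost without normal replicate 4 (adjusted p = 0.0549) or early replicate 1 (0.0639), 2 (0.0666), 3 (0.0708) or 4 (0.0692). With the file number, taken as the mouse, as a block the second had an adjusted p of 0.498 and CLEC12A, at 6.28 and 25.2 CPM in core against 189 and 45.9 CPM in peripheral libraries, passed instead (-1.92, adjusted p = 0.00142; 0.114 without the block); 522 of 4891 genes passed with the block and 62 without it, on 2 libraries from each site. CLEC12A also passed there by edgeR with TMM (-2.54, adjusted p = 0.0338) and RLE (-2.49, 0.0396) and by DESeq2 (-2.58, 0.0228). Lung transcripts summed to 3160 to 6750 CPM in the CD8 core and 145 to 180 CPM in the peripheral libraries, so lung RNA and site cannot be told apart there. The core-minus-peripheral difference of TYROBP differed between granulocytes (0.31) and CD8 cells (-2.49) by 2.80 ± 0.62 (adjusted p = 0.0115 by limma over 6498 genes, of which 0.554% passed). This was lost without granulocyte core replicate 1 (2.62, adjusted p = 0.0561), CD8 core replicate 1 (2.11, 0.567) or CD8 peripheral replicate 1 (1.70, 0.5), and no other of the 9 genes passed such a test against CD4, CD8 or Treg cells, where 0.0616%, 0.554% and 0.339% of genes passed.

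HCST (DAP10), the neighbouring adaptor gene 126 bases from TYROBP on the opposite strand, did not share this pattern: it had 1200 ± 166 CPM in normal (n = 4), 704 ± 259 CPM in early (n = 4), 1020 ± 282 CPM in peripheral (n = 2) and 1280 ± 212 CPM in core CD8 libraries (n = 2). The ratio of TYROBP to FCER1G within a library had a median of 12.7 in CD4, 6.22 in CD8 and 2.82 in Treg libraries, against 4.02 in granulocytes, where it never passed 5.02. CD4 libraries of normal marrow had ratios of 14.4 to 18.1, all above every granulocyte library. Over the 40 T cell libraries TYROBP was most like UNC93B1, a chaperone of endosomal Toll-like receptors (r = 0.93), GRN (0.90) and SYNGR2 (0.90). FCER1G was most like the macrophage inhibitory receptor SIRPA (0.93), CFP (0.92) and PLBD1 (0.90), and the 2 adaptors had r = 0.45 with each other.

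A group of 10 genes around IRF8 and SPIB, transcription factors of plasmacytoid dendritic cells and B cells, was looked at after the TYROBP values were seen. IRF8 had 2780 ± 375 CPM in normal, 3150 ± 369 CPM in early, 2150 ± 1310 CPM in peripheral and 593 ± 375 CPM in core CD4 libraries, and 3.20 to 13.9 CPM in normal and early granulocytes. The summed CPM of the 10 genes was 456 to 2470 in core and 6870 to 8120 in normal CD4 libraries, 3720 to 9030 in early and 1250 to 2300 in normal CD8 libraries, and 16.6 to 62.5 over all granulocyte libraries. The CD4 peripheral library with the least TYROBP, replicate 2, also had the least IRF8 (311 CPM) and SPIB (68.4 CPM) of its group. The part of such cells in the TYROBP values was not tested.

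**Figure D5:**
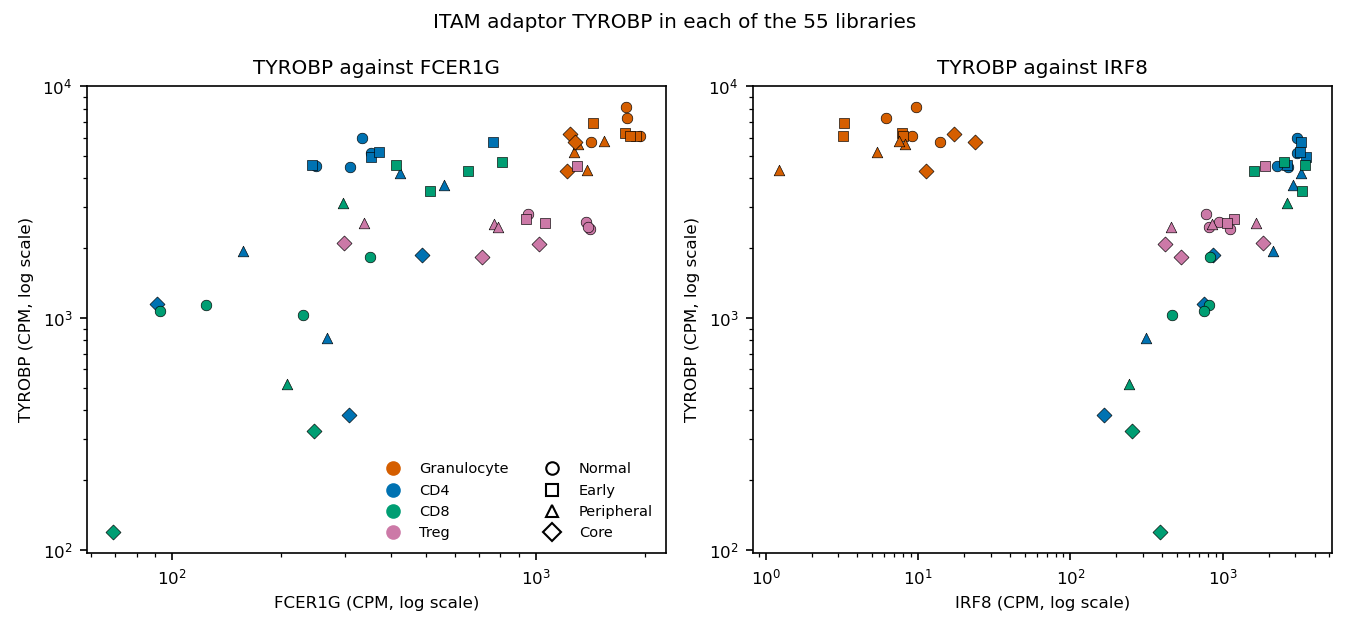
TYROBP against FCER1G (left) and against IRF8 (right) in each of the 55 libraries (points, coloured by population and shaped by marrow; all axes CPM on log scales). Granulocytes held 1220 CPM or more of FCER1G and at most 23.6 CPM of IRF8; CD4 libraries of normal and early marrow had 4470 to 5990 CPM of TYROBP with 2280 to 3500 CPM of IRF8, and both CD8 core libraries had at most 326 CPM of TYROBP with at most 386 CPM of IRF8.

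CLEC12A was lower in the core in CD4 and Treg libraries too, by limma. In CD4 libraries it had 51.4, 39.9 and 81.0 CPM in core marrow, against 285, 148, 209 and 235 CPM in peripheral (-1.63 ± 0.33, adjusted p = 0.00987) and 99.7, 191, 185 and 221 CPM in normal marrow (-1.28 ± 0.33, 0.0292). In Treg libraries it had 107, 88.8 and 143 CPM in core against 389, 456, 196 and 427 CPM in normal marrow (-1.57 ± 0.30, adjusted p = 0.00339), the 1 of 6 tested members that passed, where 6.24% of genes did (4.46% lower). In each of these comparisons no core library overlapped the other group. Treg core libraries also had less C1QA, at 2080 ± 1740 CPM (n = 3) against 9620 ± 550 CPM in normal ones (n = 4), and more of the T cell markers, summed to 2400 to 5350 against 956 to 1660 CPM. The CD4 call against peripheral marrow was lost without core replicate 2 (-1.47, adjusted p = 0.0896), and that against normal marrow without core replicate 1 (-1.26, 0.0837) or 2 (-1.12, 0.198) or normal replicate 2 (-1.23, 0.0736), 3 (-1.24, 0.0899) or 4 (-1.16, 0.0889), and without a filter on low values (-1.28, 0.0643). In libraries low in lung transcripts the values were -1.16 (adjusted p = 1.0), with 1 core library, -1.08 (0.997), with 1 core and 1 normal library, and, in Treg, -0.77 (0.783), with 1 normal library.

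CD14 was also high in some T cell libraries of the core. Treg core libraries had 2640, 1290 and 197 CPM, against 189, 150 and 137 CPM in peripheral ones, a difference of 2.33 ± 0.78 that did not pass (adjusted p = 0.187), although no core library overlapped the peripheral ones. Without core replicate 3 the difference was 3.44 (adjusted p = 2.6e-05), and the difference from normal libraries, 1.67 ± 0.73 (0.254), was 2.78 (0.000109). CD4 core libraries had 27.7, 168 and 642 CPM, against 51.3, 61.6, 149 and 63.0 CPM in peripheral ones (1.01 ± 0.66, adjusted p = 0.595; 2.00 and 0.0379 without core replicate 1). S100A8 was at 4270, 5440 and 4670 CPM in the Treg core libraries, against 11200, 16100 and 4910 CPM in the peripheral ones, and C1QA at 2350, 3670 and 232 CPM against 8350, 7920 and 1870 CPM. Against normal marrow, CD14 in the core passed by DESeq2 in Treg (2.39, adjusted p = 0.00183) and CD4 libraries (2.06, 0.0286). There 303 of 4793 and 278 of 4534 genes passed. By edgeR with TMM the Treg difference passed (2.42, adjusted p = 0.0474). By limma the CD4 difference was 1.18 ± 0.66 (adjusted p = 0.411). Over the 40 T cell libraries CD14 was most like IL1B (r = 0.88), PLIN2 (0.80) and PLA2G7 (0.80). The core-minus-peripheral difference of CD14 in granulocytes minus that in Treg was 1.12 ± 0.95 (adjusted p = 0.685), which did not pass.

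For the remaining T cell comparisons, 0 members passed by limma in CD4 early (0.00% of genes) and peripheral (0.00%), CD8 peripheral (0.00%), and Treg early (0.167%) and peripheral libraries (2.52%) against normal marrow, or in Treg core against peripheral marrow (1.52%). By edgeR and DESeq2 0 members passed in these comparisons as well, except CD14 in Treg core against peripheral marrow by DESeq2 (3.07, adjusted p = 0.000352). By limma, before adjustment, these comparisons were under 0.05 for TYROBP in CD4 peripheral libraries (-1.12 ± 0.43), for FCER1G (-1.04 ± 0.41) and TLR4 (-1.19 ± 0.55) in Treg peripheral libraries, and for CD14 and CLEC12A in Treg core libraries, where CLEC12A had 113 ± 27.5 CPM against 236 ± 94.4 CPM in peripheral ones. Tested members whose groups did not overlap in CPM were TYROBP and CLEC12A in CD4 core against normal (19.9% of all genes), CLEC12A in CD4 core against peripheral (11.5%), and TYROBP in CD4 peripheral against normal marrow (7.26%), with 0 in CD4 early marrow (4.63%). In CD8 they were TYROBP and FCER1G in early against normal (13.2%), TLR2 in peripheral against normal (17.5%), TYROBP and CLEC12A in core against normal (31.2%), and TLR2, TYROBP and CLEC12A in core against peripheral marrow (48.1%). In Treg they were FCER1G in peripheral against normal (16.4%), TYROBP and CLEC12A in core against normal (19.5%), and CD14, TYROBP and CLEC12A in core against peripheral marrow (15.1%), with 0 in early marrow (11.5%). Of the pathway lists, SYK, the kinase that binds phosphorylated ITAMs, was higher in early than in normal CD8 libraries (2.06 ± 0.43, adjusted p = 0.0111) and lower in core than in normal CD4 (-1.51 ± 0.38, 0.024) and Treg libraries (-1.14 ± 0.32, 0.0394). UNC93B1 was lower in core than in normal CD4 (-1.65 ± 0.37, adjusted p = 0.0161) and Treg libraries (-0.83 ± 0.23, 0.0359). In each of these CD4 and CD8 comparisons TYROBP, measured in the same libraries, differed in the same direction.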

How the data were processed

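RNA of 4 sorted populations was measured in 55 libraries, in 16 groups set by the labels. Per the submitters' processing notes the tools named are fastp 0.20.0, STAR 2.6.0c and DESeq2 1.30.1, and the build GRCm38; the sources used here do not give how reads, molecular identifiers and strand were counted. The deposited signal values are gene counts that the authors divided by 1 factor per library: 100.0% of values in each library became whole within 0.01 when the value of 1 read was divided out, and CPM was computed from those reads. Of 15734 rows, 5 had no symbol and were left out (at most 0.0124% of the value). Groups were compared with limma 3.58.1 (R 4.3.3; trend and robust) on log2(deposited value + 4), with 1 fit per population over genes that reached 10 in at least the number of libraries of the smallest group, and Benjamini-Hochberg adjustment over all genes; a gene passed under 0.05. Core-minus-peripheral differences were compared between populations in 1 fit over all 55 libraries. The alternatives were other pseudocounts, filters and scalings, limma-voom, edgeR 4.0.16 and DESeq2 1.42.0 on the recovered counts, libraries low in lung transcripts (summed deposited value of 6 lung genes at most 200), leaving out each library, and a replicate block: for core against peripheral marrow the number in the file name, taken as the mouse, and for other pairs the replicate number of the title, which joins different mice. Same-numbered core and peripheral libraries deviated from their group means with correlations of -0.34, 0.51 and 0.19 in granulocytes and 0.28, 0.22 and 0.29 in CD4. In Treg they were 0.07, 0.15 and 0.24. In CD8, with 2 libraries from each site, both were 0.11. The deviations of 2 libraries from their mean mirror each other, so these count as 1 value. The pairing of sites comes from the series design, which takes both from 1 mouse. That the number marks the mouse is not stated. The tests were checked on simulated data. The 9 genes and all gene lists were chosen with earlier results of these data known; the T cell likeness and the IRF8 and SPIB group were added after values were seen. Named genes of the other lists are those that passed, and those most like a member are its 3 highest correlations. Counting limits use 3 reads.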

Additional observations from a re-analysis of the deposited data

Results flagged for a closer look

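Of 59 combinations of a gene and a group of 4 libraries examined, 4 held a library far from the other 3, and 2 of these were the same library; chance flags about 1 in 20. CD14 was at 149 CPM in CD4 peripheral replicate 3, against 51.3 to 63.0 CPM in the other 3. TYROBP was at 1830 CPM in CD8 normal replicate 1, against 1030 to 1140 CPM, and CLEC12A in the same library was at 90.6 CPM, against 33.0 to 41.8 CPM; that library also had the most S100A8 of its group, at 3580 CPM. FCER1G was at 950 CPM in Treg normal replicate 3, against 1370 to 1410 CPM, and TLR4 was lowest in that library too, at 7.01 CPM.

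The core-minus-peripheral difference of TYROBP differed between granulocytes and CD8 cells, by 2.80 on the log2 scale. It rests on 2 CD8 libraries from each site.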

How the results depend on the processing

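Of 1351 recomputed differences of single members, 1289 kept their direction and side of the threshold, 42 no longer passed, 18 newly passed and 2 reversed. Both reversals came in libraries low in lung transcripts, in core against early granulocytes: TLR4 at -1.37 (adjusted p = 0.0151) and CLEC4E at -1.46 (0.0395), with 1 core library left; 4 members passed there against 2, and 872 of 3808 genes against 77. The other counts of passing members that moved are given by setting. In granulocytes, early against normal gave 0 without a filter, by edgeR with TMM or RLE and with the replicate block. Peripheral against normal gave 0 without a filter, 1 with per-million scaling and by edgeR with TMM or RLE, and 4 by DESeq2 (496 of 3808 genes, against 310). With the replicate block that comparison also gave 4, all lower: CLEC12A, CLEC4D (-0.75, adjusted p = 0.00439), TYROBP (-0.61, 0.00556) and FCER1G (-0.56, 0.0119), where 820 genes passed. Outside core against peripheral marrow the block is the title's replicate number, which joins libraries of different mice, so that these are no paired results. In CD4, core against normal gave 1 without a filter and with the block, and 0 in libraries low in lung transcripts, as did core against peripheral. In CD8, early against normal gave 1 with pseudocount 1 or per-million scaling, and 0 without a filter, by edgeR with TMM or RLE, by voom and in libraries low in lung transcripts. CD8 core against normal gave 0 with per-million scaling and with the block, and core against peripheral 2 by edgeR with TMM or RLE and by DESeq2, and 0 with pseudocount 1, a filter of 20, per-million scaling and voom. In Treg, core against normal gave 2 by edgeR with TMM and by DESeq2 and 0 in libraries low in lung transcripts, and core against peripheral 1 by DESeq2. With pseudocount 16, 1, 2 and 1 members differed between granulocytes and CD4, CD8 and Treg, among them TREM1 (1.5, 1.74 and 1.54; adjusted p = 0.00233, 0.000792 and 0.00225). The causes were not tested.

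Leaving out 1 library at a time gave 0 to 1 passing members in early, 0 to 4 in peripheral and 2 to 4 in core against normal granulocytes, 2 to 3 in core against peripheral, 2 to 2 in core against early and 0 to 0 in peripheral against early. It gave 0 to 2 in both CD4 core comparisons, 0 to 2 in CD8 early and 0 to 1 in both CD8 core comparisons, 1 to 2 in Treg core against normal, 0 to 1 in Treg core against peripheral, 0 to 2 for the difference between granulocytes and CD8, and 0 to 0 elsewhere. Per-million scaling moved the median of all genes to 0.21 in peripheral against normal, 0.24 in peripheral against early, -0.11 in core against normal and -0.33 in core against peripheral granulocytes; peripheral against normal then had 234 genes higher and 75 lower, against 146 and 164 on the deposited scale. On deposited values the TYROBP level in percent of granulocytes was 39.6 and 41.8 in CD4 normal and early, 11.8 and 35.9 in CD8 normal and early, and 22, 28.5, 33.6 and 20.4 in Treg normal, early, peripheral and core libraries, against 73.9, 80.7, 18.7, 67.3, 37.8, 51.0, 48.0 and 37.2 in CPM. Depth limits TLR4, CLEC4E and, in T cells, TREM1 and CLEC4D most.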
